A study of Mus musculus with 19 samples.

Results

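The genes that set the G1 checkpoint, the gate between quiescence and DNA replication, were followed in regulatory T cells (Tregs) that carry much or little of the activation marker CD44. The 10 genes were chosen by symbol: the D-type cyclins Ccnd2 (listed as CCND2) and Ccnd3 (CCND3), the G1 kinases Cdk4 (CDK4), Cdk6 (CDK6) and Cdk2 (CDK2), the inhibitors Cdkn2c (CDKN2C), Cdkn2d (CDKN2D), Cdkn1a (CDKN1A) and Cdkn1b (CDKN1B), and the retinoblastoma gene Rb1 (RB1). All 10 were found among the 24982 genes of the count table and all 10 passed the filter on low counts, as did 11464 genes in all. Cells were CD4+ FoxP3-GFP+ Tregs sorted as CD44high or CD44low from the axillary, brachial and inguinal nodes that drain the injury. Every mouse was a Foxp3DTR mouse, in which the Foxp3 locus drives a diphtheria toxin receptor fused to GFP, and no toxin is stated for these samples. Mice were 8 to 16 weeks old. Injured mice had 20% of the body surface placed in water at 90 °C for 9 seconds, and cells were taken 7 days later. Uninjured mice went through the same steps, with ketamine, xylazine, buprenorphine, saline and atipamezole, but with water at room temperature. RNA came from 50000 cells per sample. The labels give 4 CD44high and 5 CD44low samples from uninjured mice and 4 CD44high and 6 CD44low samples from injured mice. They do not say whether a sample was 1 mouse or a pool, so the p-values measure the spread between these samples, which may be technical in part. Injured CD44low libraries 1_2, 4_2 and 5_2 carry a second number that the labels do not explain.

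In a resting lymphocyte the RB protein holds E2F factors inactive, and genes of DNA replication stay off. D-type cyclins bind CDK4 and CDK6, which phosphorylate RB, and cyclin E with CDK2 completes that step and starts S phase. Inhibitors of the INK4 class, such as p18 (Cdkn2c) and p19 (Cdkn2d), bind CDK4 and CDK6 alone, whereas p21 (Cdkn1a) and p27 (Cdkn1b) of the CIP/KIP class bind cyclin-CDK complexes and restrain CDK2. Much of this control acts on protein stability and phosphorylation, which RNA counts do not measure.

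Promoter windows of 8 of the 10 genes were matched in a table drawn from RefSeq (build GRCm38.p6), and windows of Ccnd2 and Rb1 were not used here. The INK4 pair is shown because its members differed in opposite directions between the subsets, and Cdk2 because it was the member with an E2F motif of the longer form. Each line gives the 250 bases before the transcription start in that table, 5′ to 3′ in the direction of the gene, which lies on the minus strand for all 4 windows. The bases that follow the start were found in a GENCODE transcript of the gene for every window but that of Cdk2, so the place of the Cdk2 window relative to a transcript start was not checked independently. Capitals mark searched motifs on either strand.
Cdkn2c, first start, chr4:109666757-109667006: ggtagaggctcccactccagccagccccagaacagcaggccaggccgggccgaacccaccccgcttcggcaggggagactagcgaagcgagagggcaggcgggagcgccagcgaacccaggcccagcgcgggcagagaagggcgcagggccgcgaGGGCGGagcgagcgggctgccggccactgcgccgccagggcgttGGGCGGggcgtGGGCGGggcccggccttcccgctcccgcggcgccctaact
Cdkn2c, second start, chr4:109665373-109665622: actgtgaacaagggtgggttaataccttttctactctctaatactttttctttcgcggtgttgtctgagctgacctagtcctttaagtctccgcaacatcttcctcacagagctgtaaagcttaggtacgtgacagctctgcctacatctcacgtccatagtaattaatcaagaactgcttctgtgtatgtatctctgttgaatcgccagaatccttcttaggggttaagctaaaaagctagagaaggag
Cdkn2d, chr9:21291210-21291459: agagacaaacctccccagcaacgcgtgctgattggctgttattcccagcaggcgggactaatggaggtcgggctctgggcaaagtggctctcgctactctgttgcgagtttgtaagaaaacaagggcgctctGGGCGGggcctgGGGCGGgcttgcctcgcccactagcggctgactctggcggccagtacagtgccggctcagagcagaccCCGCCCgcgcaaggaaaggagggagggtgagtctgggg
Cdk2, chr10:128705052-128705301: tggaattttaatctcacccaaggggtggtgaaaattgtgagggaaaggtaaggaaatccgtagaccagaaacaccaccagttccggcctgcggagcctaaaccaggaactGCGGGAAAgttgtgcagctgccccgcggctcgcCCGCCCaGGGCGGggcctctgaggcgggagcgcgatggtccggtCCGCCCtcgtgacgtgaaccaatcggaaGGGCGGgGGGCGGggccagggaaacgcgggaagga
The motifs searched were the E2F letters TTTCCCGC, TTTGGCGC and TTTGCGC, the CHR letters TTTGAA, the FOXO letters GTAAACA and the GC box GGGCGG, none of which contains another. The GC box occurred 3 times in the first Cdkn2c window, 3 times in the Cdkn2d window and 5 times in the Cdk2 window, and 32.7% of 32851 promoter windows held it. The second Cdkn2c window held none of the searched letters. TTTCCCGC, held by 0.895% of windows, occurred 1 time in the Cdk2 window and in no other window of the 8 genes. TTTGCGC, held by 1.33%, occurred 1 time before Cdk4, and GTAAACA, held by 3.17%, 1 time before 1 of the 2 starts of Ccnd3. No window of the 8 genes held TTTGGCGC (0.417% of windows) or TTTGAA (16%).

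Libraries held between 5582234 and 9433610 counts, and each value below is in CPM, the count divided by the TMM-scaled library total, or in its log2. The sort was visible in the transcript of Cd44, at 541 to 626 CPM in CD44high and 111 to 156 CPM in CD44low libraries of uninjured mice, and at 369 to 497 and 102 to 150 CPM in injured mice. Foxp3, Il2ra and Cd4 were present in every library, at no less than 47.7, 270 and 502 CPM. Of the markers of macrophages and dendritic cells, 7 of the 7 tested were higher in CD44high Tregs of uninjured mice, with summed levels of 75.6 to 152 CPM against 20.6 to 39.5. After injury 2 of 7 were higher, at sums of 93.2 to 237 against 34.1 to 151 CPM. In this list Clec9a was at 0 in 12 and Fcgr1 in 10 of the 19 libraries. Of all genes tested, 24.7% were higher in CD44high Tregs of uninjured mice and 20.1% in those of injured mice. B cell markers summed to 85.4 to 258 CPM over all groups, CD8 and NK cell markers to 46.4 to 73.1 CPM and neutrophil markers to at most 30.4 CPM, with Mpo at 0 in 18 libraries. Of 7 B cell markers tested, 1 was higher in CD44high Tregs of uninjured mice and none in those of injured mice. Of 5 CD8 and NK cell markers tested, 1 was higher in CD44high Tregs in each state. Summed stromal markers, nearly all of them Pecam1, separated the subsets. The sums were 59.3 to 74.4 CPM in CD44high and 187 to 219 CPM in CD44low libraries of uninjured mice. In injured mice they were 78.5 to 115 and 136 to 231 CPM. The 2 stromal markers tested went in opposite directions in CD44high Tregs of uninjured mice, 1 lower (log2 -1.73) and 1 higher (log2 4.92). In injured mice 1 was again lower and 1 higher. Cdh5 was at 0 in 16 and Lyve1 in 14 libraries, and Pdgfra and Ccl19 were at 0 in all 19. The sums thus follow Pecam1 and do not stand for the stromal markers as a set. The part of these cells in the results was not tested.

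Libraries also differed in how counts varied with gene length. Relative to the mean of all libraries, log2 CPM changed per doubling of exon length by 0.0706 to 0.162 in uninjured CD44low and by -0.0529 to -0.026 in uninjured CD44high libraries, and by -0.225 to 0.00172 and -0.145 to 0.125 in injured CD44high and CD44low libraries. Cdk6, with 13989 bases of exons, and Rb1, with 6015, were each lowest of the 4 injured CD44high libraries in library 2, which had the lowest slope of that group. Both were highest of the 6 injured CD44low libraries in library 5_2, which had the highest slope of its group. The part of this trend in the results was not tested. Values with the trend taken out, a setting chosen after seeing the data, are given where they change a call.

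Per kilobase of exons, Ccnd2 stood highest among the 10 genes in both subsets of uninjured mice, at 100 ± 7.95 CPM per kb (SD, n = 4) in CD44high and 93.1 ± 7.77 (SD, n = 5) in CD44low Tregs. In CD44high Tregs there followed Cdk4 at 61.1, Cdkn2d at 48.5 ± 7.25, Ccnd3 at 45 ± 4.58, Cdkn2c at 32.8, Rb1 at 17.5, Cdkn1b at 12.4 ± 1.33, Cdk2 at 12.2 ± 1.15, Cdk6 at 6.01 ± 1.03 and Cdkn1a at 4.72 ± 1.25 CPM per kb. Neighbours in that order lay within their spread for Cdkn2d and Ccnd3, for Cdkn1b and Cdk2, and for Cdk6 and Cdkn1a. In CD44low Tregs the order was Ccnd2, Cdkn2d at 65.5, Cdk4 at 50.9, Ccnd3 at 28.4, Rb1 at 18.8, Cdkn1b at 12.1, Cdk2 at 7.82, Cdk6 at 2.90 ± 0.563, Cdkn2c at 2.73 ± 0.630 and Cdkn1a at 0.580 CPM per kb. Cdkn2c thus ranked with the mid-level members in CD44high Tregs and next to last in CD44low Tregs. The order depended on the length used, for the D-type cyclins and for Cdk2 among others. Per kilobase of the longest coding transcript Ccnd3 was at 187 and Ccnd2 at 149 CPM per kb in CD44high Tregs of uninjured mice. Cdk2 was at 31.5 in that group, above Rb1 at 22.7 and Cdkn1b at 12.4. With these lengths, in CD44low Tregs of uninjured mice, Cdk2 at 20.2 stood above Cdkn1b at 12.1, and Cdk4 at 80.5 above Cdkn2d at 72.45.

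**Figure D1:**
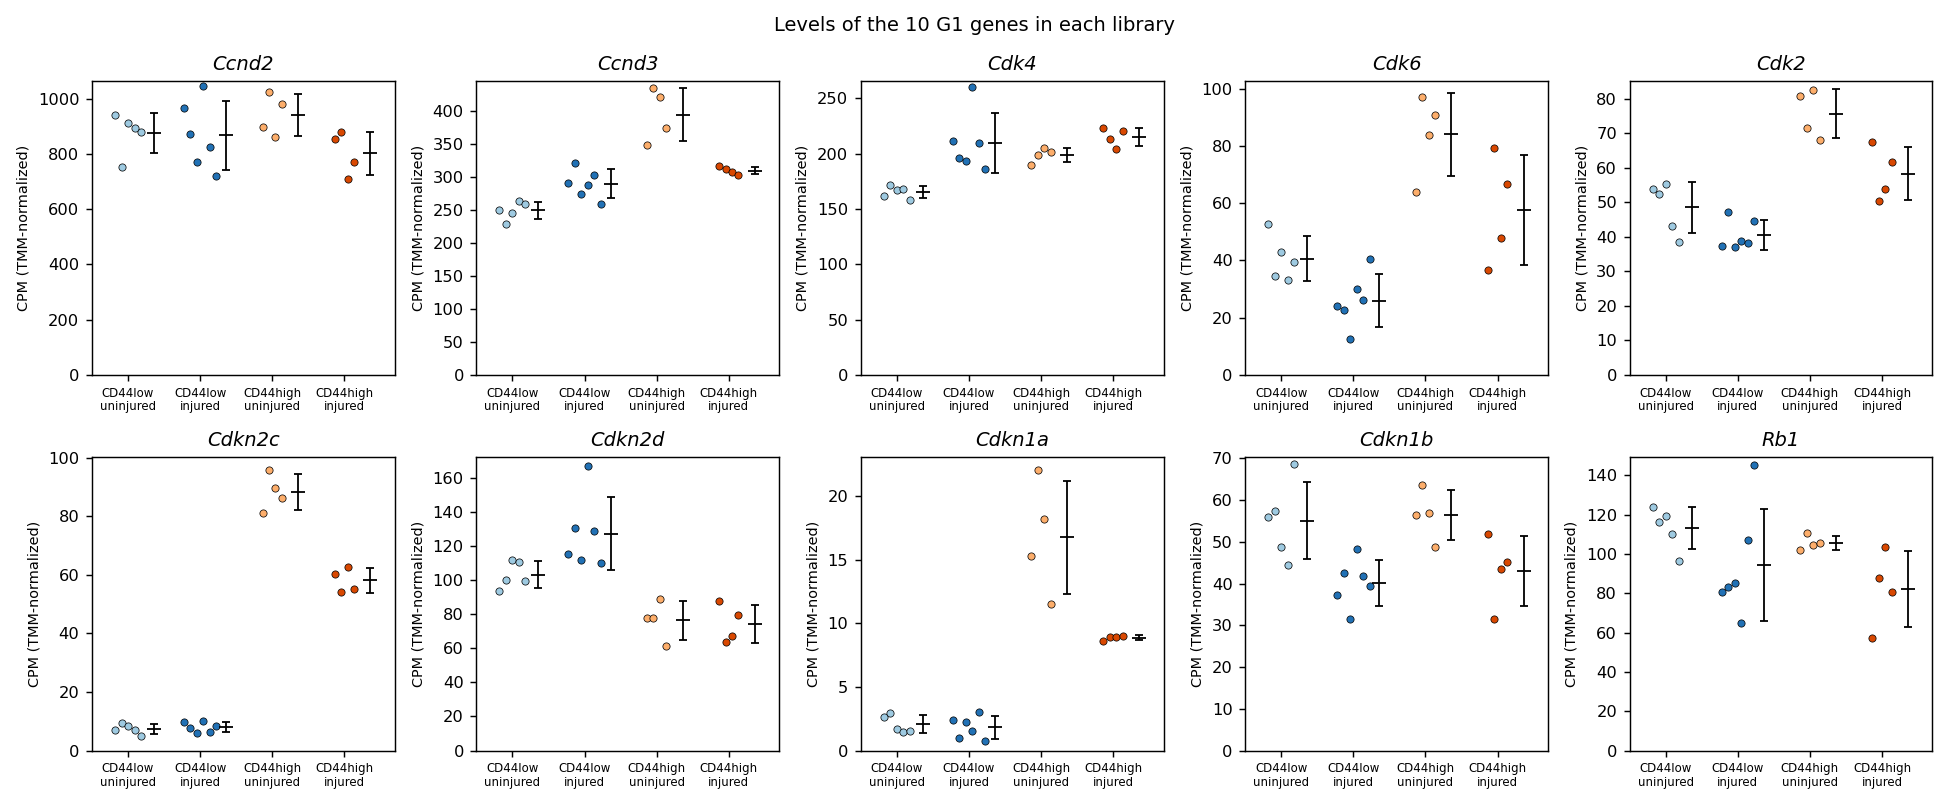
Levels of the 10 genes in TMM-normalized CPM (y axis, linear from 0), 1 point per library, in the 4 groups (x axis), with mean and SD beside the points. Cdkn2c and Cdkn1a separated the subsets most, at 81.1 to 95.8 against 4.90 to 9.45 CPM and 11.6 to 22.0 against 1.44 to 2.99 CPM in uninjured mice.

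CD44high and CD44low Tregs were compared first in uninjured mice, to see which parts of the gate differ between the subsets without injury. Of the 10 genes, 6 were higher in CD44high Tregs (Cdkn2c, Cdkn1a, Cdk6, Ccnd3, Cdk2 and Cdk4) at an adjusted p under 0.05, where 24.7% of all genes tested were higher. Only Cdkn2d among the 10 was lower, where 21.1% of all genes were. Of the 10 members 7, the same as those called, had no overlap between the libraries of the subsets, a separation found for 40.7% of genes. In bulk RNA, fewer cells of a type and less RNA per cell cannot be told apart. In injured mice 4 members were higher (Cdkn2c, Cdkn1a, Cdk6 and Cdk2), against 20.1% of all genes, and Cdkn2d was again lower, against 17% of all genes. There 4 members had no overlap, against 24.8% of genes.

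The INK4 inhibitors went in opposite directions. Cdkn2c, which encodes p18INK4c, was at 81.1, 95.8, 89.7 and 86.2 CPM in the CD44high libraries of uninjured mice and at 7.19, 9.45, 8.23, 6.90 and 4.90 CPM in the CD44low libraries. Every CD44high library lay far above every CD44low library, by 12.0-fold on the fitted scale (log2 3.58, standard error 0.17, adjusted p = 1.89e-14). In injured mice it was at 60.4, 54.0, 62.6 and 55.3 CPM in CD44high and from 5.85 through a median of 7.93 to 10 CPM in the 6 CD44low libraries. The separation there was 7.31-fold (log2 2.87, standard error 0.16, adjusted p = 4.94e-13), again without overlap. Cdkn2d, which encodes p19INK4d, was at 77.7, 77.5, 89.1 and 61.3 CPM in CD44high and at 93.5, 99.7, 112, 111 and 99.6 CPM in CD44low libraries of uninjured mice. It was 1.35-fold lower in CD44high Tregs (log2 -0.43, standard error 0.13, adjusted p = 0.0104). In injured mice it was at 87.6, 63.4, 67.3 and 79.4 CPM against 110 to 167 CPM, with a median of 122, and 1.71-fold lower (log2 -0.77, standard error 0.13, adjusted p = 4.20e-05). All CD44high libraries lay below all CD44low libraries in both states.

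Cdkn1a of the CIP/KIP class, the inhibitor that p53 induces, differed nearly as much as Cdkn2c, from a far lower level. It was at 15.3, 22.0, 18.2 and 11.6 CPM in CD44high and at 2.66, 2.99, 1.70, 1.44 and 1.52 CPM in CD44low libraries of uninjured mice, where the CD44low values rest on 9 to 19 counts per library. The difference was 8.08-fold (log2 3.01, standard error 0.32, adjusted p = 4.33e-08). In injured mice the CD44high libraries lay close together at 8.63, 8.90, 8.95 and 9.04 CPM, against 0.750 to 3.06 CPM (median 1.92, 5 to 17 counts) in CD44low, a difference of 4.86-fold (log2 2.28, standard error 0.31, adjusted p = 2.27e-06). Cdkn1b, which encodes p27, was not called in either state. Its means were 56.4 ± 6.05 CPM (SD, n = 4) and 55.0 ± 9.18 (SD, n = 5) in uninjured mice, with a log2 difference of 0.03 (95% interval -0.28 to 0.35), and the log2 difference in injured mice was 0.10 (-0.20 to 0.40).

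Among the D-type cyclins, Ccnd3 differed between the subsets in uninjured mice and Ccnd2 was not called. Ccnd3 was at 349, 435, 421 and 374 CPM in CD44high and at 250.4, 229, 246, 263 and 259 CPM in CD44low libraries, without overlap and 1.58-fold higher (log2 0.66, standard error 0.09, adjusted p = 8.57e-07). In injured mice the ranges overlapped, at 303 to 316 CPM in CD44high and 259 to 322 CPM in CD44low, with a log2 difference of 0.10 (95% interval -0.07 to 0.27). Ccnd2, the most abundant member in CPM, was at 861 to 1024 CPM and 751 to 941 CPM in uninjured CD44high and CD44low libraries, with a log2 difference of 0.10 (-0.11 to 0.32). With the length trend of each library removed, that difference was 0.36 (adjusted p = 0.0358). In injured mice its log2 difference was -0.11 (-0.32 to 0.10).

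All 3 kinases were higher in CD44high Tregs of uninjured mice, to different degrees. Cdk6 was at 64.0, 97.2, 83.9 and 91.0 CPM in CD44high and at 52.8, 34.5, 42.9, 33.2 and 39.5 CPM in CD44low libraries, a 2.07-fold difference without overlap (log2 1.05, standard error 0.24, adjusted p = 0.00124). In injured mice Cdk6 spread widely, at 36.5, 79.3, 47.9 and 66.8 CPM against 12.6 to 40.4 CPM (median 25.2), and the ranges overlapped although the difference was called (2.23-fold, log2 1.15, adjusted p = 0.000469). Cdk2, the partner of cyclins E and A, was at 80.8, 71.6, 82.7 and 68.0 CPM against 53.9, 52.5, 55.2, 43.1 and 38.5 CPM in uninjured mice (1.56-fold, log2 0.64, adjusted p = 0.000312). In injured mice it was at 67.5, 50.5, 53.8 and 61.8 CPM against 36.9 to 47.2 CPM (median 38.5), 1.44-fold higher (log2 0.52, adjusted p = 0.00179). Neither state showed an overlap for Cdk2. Cdk4 differed least, at 190, 199, 205 and 201 CPM against 161, 172, 167, 168 and 158 CPM in uninjured mice (1.20-fold, log2 0.26, adjusted p = 0.0214). That call was lost without CD44high library 4 (adjusted p = 0.0550) or 5 (0.0525), without CD44low library 5 (0.0508), and with the length trend removed (log2 0.14, adjusted p = 0.157). In injured mice the log2 difference of Cdk4 was 0.04 (95% interval -0.14 to 0.22).

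Rb1, whose product is the substrate of these kinases, was not called between the subsets. It was at 102, 110, 104 and 105 CPM in CD44high and at 124, 116, 120, 110 and 96.6 CPM in CD44low libraries of uninjured mice, with overlapping ranges and a log2 difference of -0.10 (95% interval -0.46 to 0.26). In injured mice the log2 difference was -0.20 (-0.55 to 0.16).

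**Figure D2:**
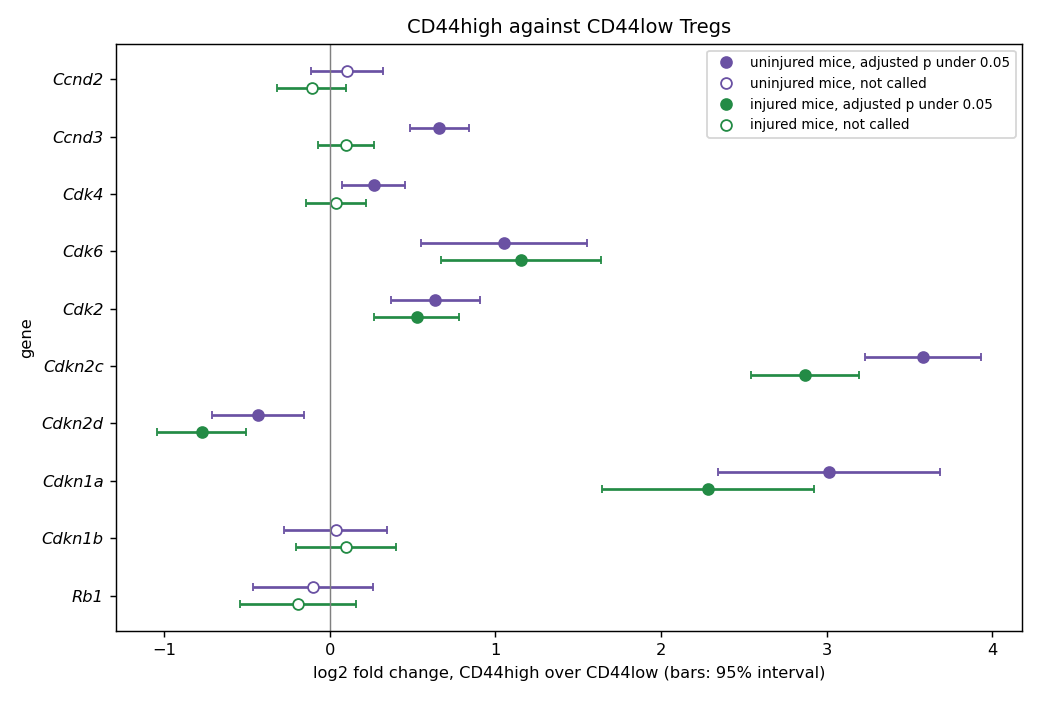
Log2 fold change of CD44high over CD44low Tregs (x axis) for the 10 genes (y axis) in uninjured and injured mice, with 95% intervals; filled points had an adjusted p under 0.05. Cdkn2c stood at 3.58 and 2.87, Cdkn1a at 3.01 and 2.28, and Cdkn2d alone was called lower, at -0.43 and -0.77.

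Within pairs of related genes the balance can be read per library, as the share of 1 gene in the length-scaled reads of both. Cdkn2c made up 40.6% ± 3.73 (SD, n = 4) of the INK4 pair in CD44high Tregs of uninjured mice and 4.01% ± 0.919 (SD, n = 5) in CD44low Tregs. In injured mice its share was 31.6% ± 3.24 (SD, n = 4) and 3.56% ± 0.745 (SD, n = 6). No CD44high library came below 28.8% and no CD44low library above 5.26%. Cdkn1a made up 27.2% ± 3.33 and 4.60% ± 1.41 of its pair with Cdkn1b in CD44high and CD44low Tregs of uninjured mice, and 21.4% ± 3.74 and 5.65% ± 2.87 in injured mice. Cdk6 stayed the minor kinase of its pair with Cdk4, at 8.91% ± 1.26, 5.4% ± 1.09, 5.84% ± 1.85 and 2.82% ± 1.08 in uninjured CD44high, uninjured CD44low, injured CD44high and injured CD44low Tregs. Ccnd2 made up 69.0% ± 2.46 and 76.6% ± 1.08 of the D-type pair in CD44high and CD44low Tregs of uninjured mice, but 44.4% and 53.9% when the longest coding transcripts gave the lengths. The shares of Cdkn2c were near the same with those lengths, at 40.1% and 3.94%.

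**Figure D3:**
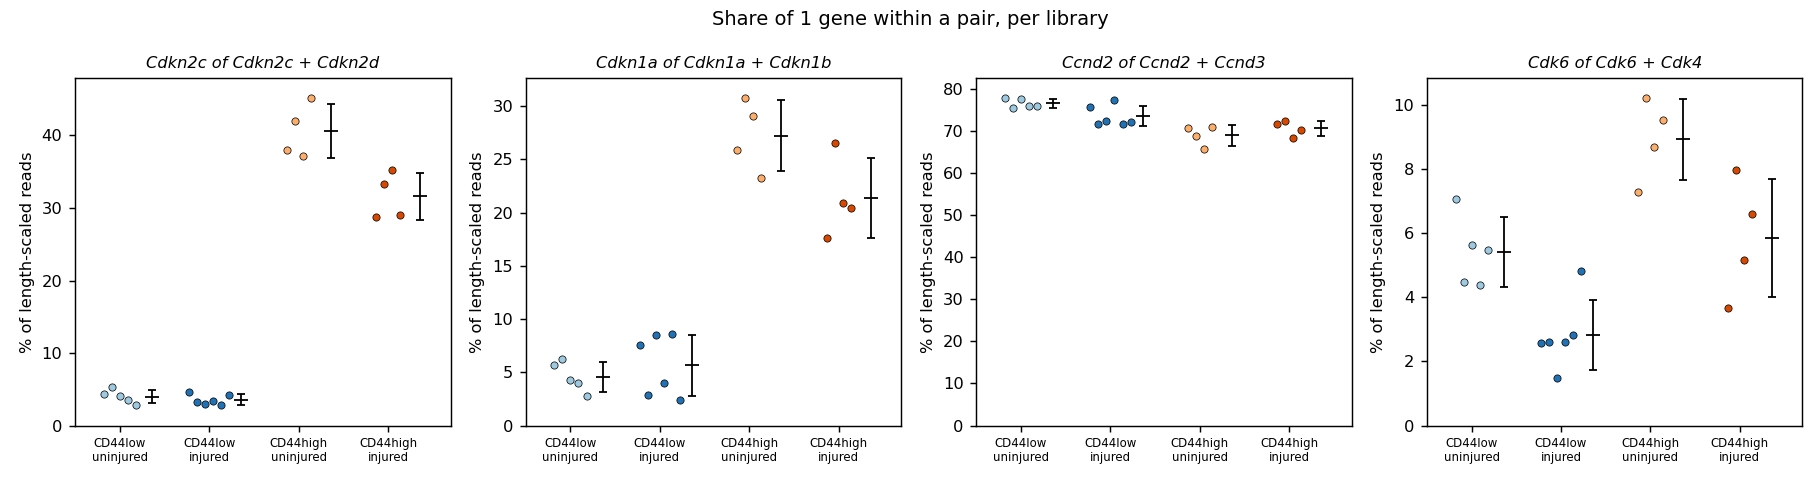
Share of 1 gene in the length-scaled reads of a pair, in percent (y axis, linear from 0), 1 point per library in the 4 groups (x axis), with mean and SD. Cdkn2c made up 28.8% to 45.2% of its pair in CD44high and 2.78% to 5.26% in CD44low libraries.

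Injured and uninjured mice were then compared within each subset, to see whether the gate had changed 7 days after the burn. Both comparisons share their libraries with those above. In CD44high Tregs 2 members were lower after injury, Ccnd3 and Cdkn2c, where 1.39% of all genes tested were lower, and none was higher, where 1.11% were. At an unadjusted p under 0.05 the count was 7 of 10, where 15% of all genes passed, and DESeq2 also called 2. The fitted log2 change was negative for 9 of the 10 genes, with a median of -0.37 against -0.02 over all genes. Over all 11464 genes tested it was positive for 5391. Libraries did not overlap for 4 members (Ccnd3, Cdkn2c, Cdk2 and Cdkn1a), as for 13.3% of genes. Summed neutrophil markers also differed, at 0 to 0.5 CPM in uninjured and 2.13 to 20.2 CPM in injured CD44high libraries, while neither of the 2 tested, S100a8 and S100a9, was called. The sort marker Cd44 itself was lower after injury (log2 -0.45, adjusted p = 0.0494), the 1 of 7 Treg and sort markers that was called. Pecam1 was higher, at 56.1 to 70.8 CPM in uninjured and 77.7 to 111 CPM in injured libraries (log2 0.69, adjusted p = 0.00643), 1 of 2 stromal markers tested. The part of these in the result was not tested.

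Cdkn2c fell from 81.1 to 95.8 CPM in uninjured to 54.0 to 62.6 CPM in injured CD44high libraries, 1.52-fold (log2 -0.60, standard error 0.16, adjusted p = 0.0427). Ccnd3 fell from 349 to 435 CPM to 303 to 316 CPM, 1.27-fold (log2 -0.35, standard error 0.09, adjusted p = 0.0377). Both calls lay near the threshold. Over 27 alternatives the adjusted p ran from 0.00262 to 0.154 for Cdkn2c, and the call was kept in 14 and lost in 13. For Ccnd3 it ran from 0.00354 to 0.200, and the call was kept in 10 and lost in 17. Among the single libraries left out, the call of Cdkn2c was lost without any of the 8 CD44high libraries, without uninjured CD44low library 1, 3 or 4, or without injured CD44low library 2, at adjusted p of 0.0516 to 0.154. The call of Ccnd3 was lost without uninjured CD44high library 3, 4 or 5, without any injured CD44high or uninjured CD44low library, or without injured CD44low library 2 or 4_2, at adjusted p of 0.0501 to 0.179. With the length trend removed it stood at -0.28 on the log2 scale (adjusted p = 0.200). Cdkn1a was at 11.6 to 22.0 CPM before and 8.63 to 9.04 CPM after injury, with a log2 difference of -0.91 (95% interval -1.55 to -0.28, adjusted p = 0.130), and was called when the groups were fitted alone (adjusted p = 0.0283). Cdk2 was at 68.0 to 82.7 and 50.5 to 67.5 CPM (log2 -0.38, adjusted p = 0.165). Cdk4 was the member with a positive value (log2 0.12, 95% interval -0.08 to 0.31).

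In CD44low Tregs Cdk4 was higher after injury, where 4.24% of all genes were, and Cdkn1b was lower, where 3.23% were. Cdk4 was at 161, 172, 167, 168 and 158 CPM in uninjured and at 186 to 261 CPM (median 203) in injured libraries, 1.27-fold higher (log2 0.34, standard error 0.08, adjusted p = 0.0153). It was the 1 member without overlap, as 4.68% of genes were. The highest value came from library 1_2. Without that library the call held (log2 0.27), and the adjusted p was over the threshold when the groups were fitted alone (0.0599). Cdkn1b was at 56.0, 57.4, 48.8, 44.6 and 68.5 CPM in uninjured and 31.5 to 48.3 CPM (median 40.5) in injured libraries, 1.37-fold lower (log2 -0.46, standard error 0.14, adjusted p = 0.0432), and the ranges overlapped. Its adjusted p ran from 0.0252 to 0.125 over 27 alternatives. The call was kept in 8 and lost in 19. It was lost without any uninjured CD44high library, without uninjured CD44low library 1, 2, 3 or 5, without injured CD44high library 4 or 5, or without injured CD44low library 1, 2, 5 or 4_2, at adjusted p of 0.0523 to 0.125. It was also lost with the length trend removed (log2 -0.44, adjusted p = 0.0501), and with library 1 summed with 1_2 and 5 with 5_2 (log2 -0.45, adjusted p = 0.0615).

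Summed neutrophil markers were at 0 to 1.69 CPM in uninjured and 0 to 30.4 CPM in injured CD44low libraries, where S100a9 was called higher and S100a8 was not, and summed macrophage and dendritic cell markers at 20.6 to 39.5 and 34.1 to 151 CPM, with none of 7 called and 4 of 7 at an unadjusted p under 0.05. Of 5 CD8 and NK cell markers tested 1 was called higher, as was 1 of 7 Treg and sort markers, where 4.24% of all genes were. Of all 11464 genes tested, 2962 had an unadjusted p under 0.05 in this comparison. The part of these markers in the values was not tested.

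Library 5_2 of the injured CD44low group decided several further values. Without it 6 members were called: Cdk4 and Cdkn1b as above, Cdk6 lower (log2 -0.80, adjusted p = 0.0145), Rb1 lower (log2 -0.41, adjusted p = 0.0396), Ccnd3 higher (log2 0.27, adjusted p = 0.0254) and Cdkn2d higher (log2 0.36, adjusted p = 0.0465). With all libraries these 4 stood at -0.65, -0.26, 0.21 and 0.30 on the log2 scale, with adjusted p of 0.0775, 0.298, 0.0857 and 0.114. Ccnd3 was also called with DESeq2 (adjusted p = 0.0270) and with the length trend removed (log2 0.40, adjusted p = 0.0150), and Cdk6 with DESeq2 (adjusted p = 0.0435). With library 1 summed with 1_2 and 5 with 5_2, Cdk6 was called as well (log2 -0.68, adjusted p = 0.0353). Without all 3 libraries that carry a second number, 4 members were called, with Cdk6 at -1.04 (adjusted p = 0.00877) and Rb1 at -0.45 (adjusted p = 0.0307) on the log2 scale. Library 5_2 held the highest Cdk6 and Rb1 of its group, 40.4 and 145 CPM, and the highest length slope, 0.125. Cdkn2c did not move beyond its spread in CD44low Tregs, at 7.33 ± 1.69 CPM (SD, n = 5) and 7.94 ± 1.71 (SD, n = 6), with a log2 difference of 0.11 (95% interval -0.23 to 0.45).

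**Figure D4:**
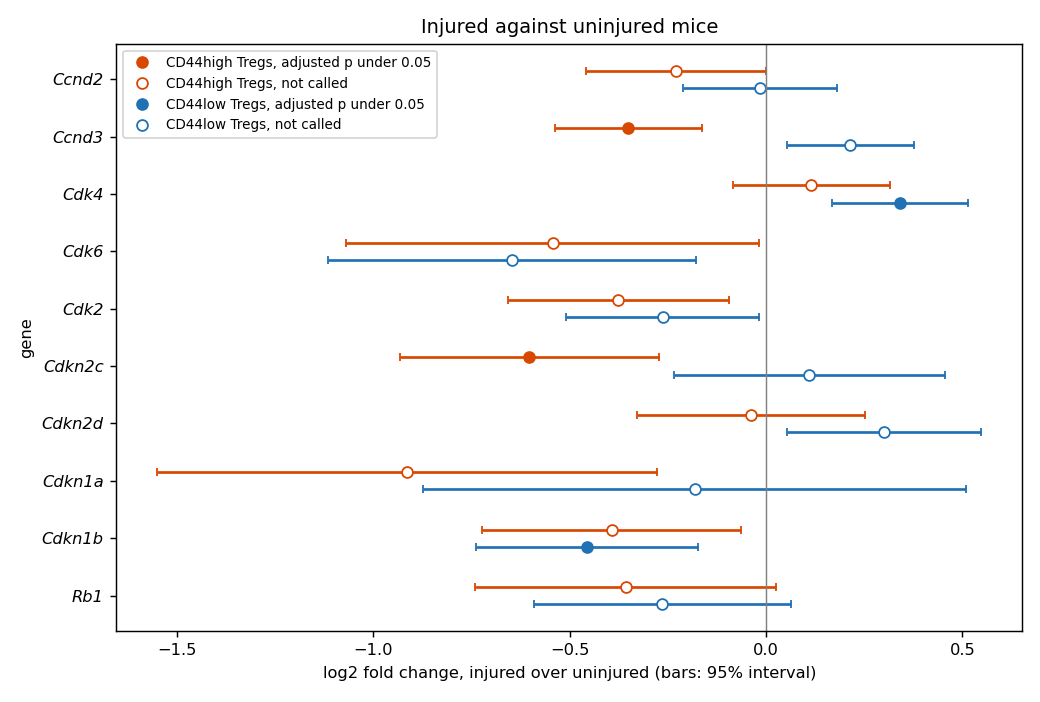
Log2 fold change of injured over uninjured mice (x axis) for the 10 genes (y axis) in CD44high and CD44low Tregs, with 95% intervals; filled points had an adjusted p under 0.05. Ccnd3 stood at -0.35 in CD44high and 0.21 in CD44low Tregs.

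The effect of injury differed between the subsets for 1 of the 10 genes, where 0.707% of all genes tested differed in either direction. Ccnd3 changed by 0.56 more in CD44low than in CD44high Tregs on the log2 scale (standard error 0.12, adjusted p = 0.0213), so that the 1.58-fold difference between the subsets in uninjured mice stood at 1.07-fold in injured mice. Over 26 alternatives the adjusted p ran from 0.000195 to 0.0627. It was over 0.05 without CD44high library 3 (0.0573) or 4 (0.0605) of uninjured mice and without CD44high library 4 (0.0551) or 5 (0.0627) of injured mice. Cdkn2c had the next smallest p of the members, with a difference of 0.71 (95% interval 0.24 to 1.19, adjusted p = 0.182), and was not called in any of the 26.

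Other genes of the G1 pathway and genes of later phases were read from lists fixed with earlier results known. Downstream, 26 of 27 S phase genes and 26 of 26 G2 and M phase genes were higher in CD44high Tregs of uninjured mice. Of all genes tested, 24.7% were higher. The median log2 differences were 1.85 and 4.80, against 0.01 over all genes. Ribonucleotide reductase genes Rrm2 (log2 4.88) and Rrm1 (1.97), and the replicative helicase gene Mcm6 (1.64), led the S phase list by p. The mitotic genes Ccnb2 (log2 6.17), Kif23 (4.03) and Birc5 (5.71) led the other. Summed, the G2 and M phase genes were at 1549 to 1941 CPM in CD44high and 81.4 to 137 CPM in CD44low Tregs, and at 1059 to 1238 and 99.5 to 174 CPM in injured mice. In injured mice 26 of 27 and 26 of 26 were again higher, against 20.1% of all genes, with median log2 differences of 1.39 and 3.48.

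In the other lists of the G1 pathway, the cyclins that partner CDK2 were higher in CD44high Tregs of uninjured mice. Ccna2 was at 170 against 9.92 CPM (log2 4.10), Ccne2 at 47.5 against 7.87 CPM (2.59) and Ccne1 at 30.2 against 6.15 CPM (2.30). Ccnd1, the D-type cyclin outside the 10, had at most 2.67 CPM in any library. Of all genes tested, 24.7% were higher and 21.1% lower in this comparison. Of 10 E2F and DP genes 6 were higher and none lower. Among the higher were Tfdp1 (log2 1.05), E2f1 (3.24) and E2f8, at 18.2 CPM against 0 to 2 counts per library. Of 8 pocket protein and MuvB genes 5 were higher, including Mybl2 at 21.6 against 0.267 CPM, Rbl2, which encodes the RB relative p130 (log2 0.81), and Lin37 (0.52). The CDC25 phosphatases, which remove inhibitory phosphates from CDKs, were higher for 3 of 3 (Cdc25b log2 1.88, Cdc25a 0.79, and Cdc25c at 8.30 against 0.230 CPM), and none of the 3 genes of the CDK-activating kinase was called. The 3 tested genes listed by name as further CDK inhibitors were higher too. Cdkn3 was at 20.1 against 0.591 CPM and Cdkn1c at 20.6 against 8.79 CPM. Cdkn2b was at 4.16 against 0.189 CPM, with its CD44low counts from 1 library. Cdkn2a had 11 counts over all 19 libraries. Among 11 tested ubiquitin ligase parts for G1 cyclins and inhibitors, 4 were higher, against 24.7% of all genes, and 2 lower, against 21.1%. Cks1b (log2 2.68), Fzr1 (0.79) and Fbxo4 (0.70) led the higher, and the lower were Fbxw7 (-0.67) and Ambra1 (-0.80).

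Quiescence and antiproliferative factors ran the other way on balance in CD44high Tregs of uninjured mice, with a median log2 of -0.54. Of the 20, 11 were lower and 4 higher, against 21.1% and 24.7% of all genes. Foxp1 (log2 -1.22) and Foxo1 (-0.58), transcription factors that hold T cells in a resting state, and Btg1 (-0.51) led those that were lower. Gadd45b (1.54) and the cyclin G genes Ccng1 (2.09-fold) and Ccng2 (log2 0.88) led those that were higher. In injured mice 7 were lower and 4 higher, against 17% and 20.1% of all genes.

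**Figure D5:**
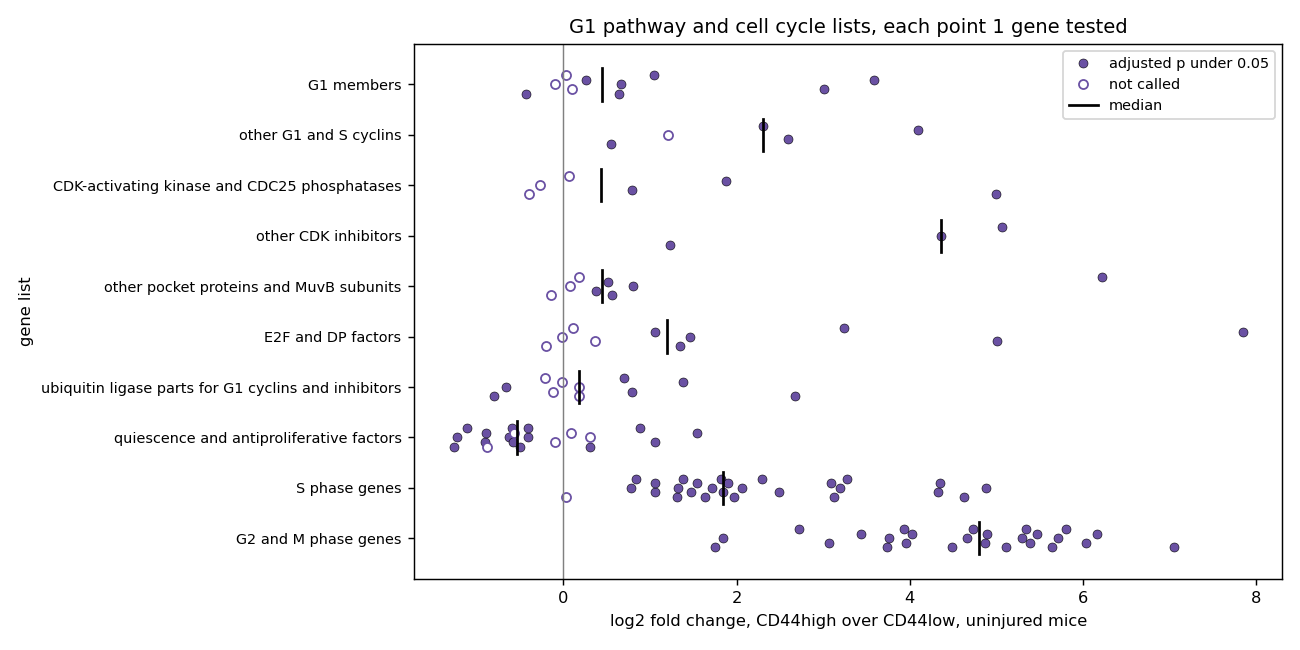
Log2 fold change of CD44high over CD44low Tregs in uninjured mice (x axis) for each tested gene of 10 lists (y axis), with called genes filled and the median of each list as a bar. The S phase and G2 and M phase lists had medians of 1.85 and 4.80, and the quiescence list -0.54.

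After injury, 2 of 27 S phase genes, 1 of 10 E2F and DP genes and 1 of 8 pocket protein and MuvB genes were lower in CD44high Tregs. Of all genes tested, 1.39% were lower. The S phase genes Rrm1 (log2 -0.45, adjusted p = 0.0353) and Mcm7 (-0.44, 0.0358) fell, as did E2f2 (-0.67, 0.0498) and Lin54 (-0.55, 0.0450). No G2 and M phase gene was called by edgeR, and 13 of 26 had an unadjusted p under 0.05, where 15% of all genes had. DESeq2, counted for this list after the edgeR result was seen, called 6 lower, against 283 of the 11464 genes tested. All 26 had a negative log2 value in edgeR, with a median of -0.58, where 5391 of all 11464 genes tested had a positive one. In CD44low Tregs 4 of 26 G2 and M phase genes rose in edgeR, where 4.24% of all genes did. DESeq2 called 6 of the 26 higher there, against 923 of the 11464 genes tested. Ccnb2 led those called by edgeR, from 2.28 ± 0.779 (SD, n = 5) to 6.92 ± 2.36 CPM (SD, n = 6). Cdca8 followed, from 3.22 ± 1.80 to 7.58 ± 2.51 CPM. Tyms (log2 1.09) and Tfdp1 (0.34) rose too. Of the 20 quiescence and antiproliferative factors, 2 were lower (1.39% of all genes) and 1 was higher (1.11%) after injury in CD44high Tregs. In CD44low Tregs 6 were lower (3.23% of all genes) and 1 was higher (4.24%). Tsc22d3, a glucocorticoid-induced gene, rose in both subsets, from 373 ± 54.3 to 593 ± 55.0 CPM in CD44high and from 578 ± 143 to 1409 ± 280 CPM in CD44low Tregs. Foxo1 fell in both, from 604 ± 45.8 to 474 ± 10.5 CPM and from 901 ± 57.7 to 652 ± 71.8 CPM. Tob1, which encodes an antiproliferative protein, fell in both too, from 70.9 to 49.5 CPM in CD44high (log2 -0.52, adjusted p = 0.0228) and from 66.9 to 50.8 CPM in CD44low Tregs (log2 -0.40, adjusted p = 0.0244). Its relative Tob2 fell in CD44low Tregs, from 194 to 125 CPM (log2 -0.64, adjusted p = 0.00393), and was at 181 and 136 CPM in CD44high Tregs (log2 -0.40, adjusted p = 0.162).

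Over the 19 libraries, the genes whose log2 CPM was most like that of Cdkn2c were Rora (Pearson's r = 0.990), Mcm6 (0.989) and Tff1 (0.987). The libraries fall into the CD44high and CD44low subsets, and r was 0.929, 0.880 and 0.808 within the 8 CD44high and 0.460, 0.592 and 0.260 within the 11 CD44low libraries. Most like Cdkn2d were Bmyc (r = 0.930), Rexo2 (0.920) and Nfix (0.919), with r of 0.373, 0.473 and 0.653 within CD44high and 0.939, 0.844 and 0.782 within CD44low libraries. These are descriptions over libraries that share their groups, without a test.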

How the data were processed

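Bulk RNA-seq of sorted Tregs was taken from the table of raw counts per gene that the authors deposited. The authors made cDNA with SMART-Seq v4 and libraries with Swift 2S, and ran the VIPER workflow. The submitters' processing notes name STAR 2.5 and bcl2fastq 2.18 and the builds mm9 and mm10, without saying which build served the counts, so no gene coordinates are given other than those of the RefSeq promoter windows. All 19 columns of counts were used, and none was left unmapped.

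The fits were run in edgeR 4.0.16 (R 4.3.3), with DESeq2 1.42.0 as an alternative, and plots were drawn in matplotlib 3.10.9 under Python 3.11.15. Genes were filtered with edgeR's filter (minimum count 10), scaled by TMM factors (0.97 to 1.04), and fitted with 1 mean for each of the 4 groups over all 19 libraries. Each contrast was tested two-sided by quasi-likelihood in edgeR, p-values were adjusted by Benjamini-Hochberg across the 11464 genes, and a gene with a value under 0.05 was called. For log2 CPM the prior count was 2. Lengths were the union of GENCODE vM21 exons, found for 11351 of the tested genes, and no source used here gives the strand setting of the counting. Libraries held 5582234 to 9433610 counts. Reads carry no molecular identifiers. Libraries of a group differed by more than counting error, with a chi-square per gene of 4.96 to 41.3. No 2 were therefore repeat reads of 1 library, but 2 could still come from the same mouse or RNA. The spread between libraries limits the precision. The scripts were tested on simulated data.

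The members and gene lists were chosen with earlier results of these data known. The text names every member, the sort markers, from each pathway list the called genes of smallest p (up to 3 in each direction between the subsets of uninjured mice, up to 2 in each injury comparison), and the 3 genes most like the members of highest and lowest fold change. Ccnd1, Cdkn2a, the markers of other cells, and Foxo1 in CD44high and Tob2 in CD44low Tregs after injury, which ranked next after those 2, and Tob1 in CD44low Tregs were named after their values were seen. Alternatives were DESeq2, RLE factors, no filter, the groups alone, a replicate block, the second-number libraries left out or summed, other thresholds and each library left out. Removing each library's length trend (lowess, span 0.3) and transcript lengths for the shares were chosen after seeing the data.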

Additional observations from a re-analysis of the deposited data

Results flagged for a closer look

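Of the 40 sets of values (10 genes in 4 groups), 2 held a library far from the others, no more than the rate of about 1 in 20 that chance gives. Both came from library 1_2 of the injured CD44low group, 1 of those with a second number. Cdk4 was at 260.5 CPM there against 186 to 212 CPM in the other 5 libraries, a gap of 0.654 of the whole range. Cdkn2d was at 167 CPM against 110 to 130 CPM, a gap of 0.641. Its length slope, -0.145, was the lowest of the injured CD44low group, and its part in these values was not tested. Without library 1_2, Cdk4 kept its call in CD44low Tregs.

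The effect of injury on Ccnd3 differed between the subsets, by 0.56 on the log2 scale (CD44low minus CD44high) in the test of the difference itself. Of the CD44high injured libraries 4 of 4 lay below all uninjured ones, whereas in CD44low Tregs the ranges overlapped, at 259 to 322 against 229 to 263 CPM.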

How the results depend on the processing

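Alternatives were run for the 10 genes and their shares, not for the other genes named. Of the member values under them, 1229 kept their direction and their side of the threshold, 58 lost and 12 gained a call, and 41 changed sign, all 41 for values that were not called. Members called numbered 7, 5, 2, 2 and 1 (CD44high against CD44low in uninjured and injured mice, injury in CD44high and CD44low Tregs, and the difference). With a 2-fold change added to the threshold they were 3, 3, 0, 0 and 0, and at an unadjusted p under 1e-06 with 2-fold 2, 2, 0, 0 and 0. For injury in CD44high Tregs the count was 0 without the filter and 1 with the replicate block or without the length trend. For injury in CD44low Tregs it was 4 with DESeq2, 1 without the filter, 0 with the groups alone, 1 with the replicate block and 4 without the second-number libraries. Leaving out 1 library gave 6 to 7, 5 to 5, 0 to 2, 1 to 6 and 0 to 1.

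Deviations of same-numbered libraries correlated by -0.12 to 0.167. Between subsets, 1 of 4 same-numbered pairs in uninjured and 3 of 4 in injured mice were over 0.1. Of the pairs with different numbers, 0 of 16 and 5 of 20 were. These values do not settle whether same-numbered samples are paired, and the main fit did not pair them. Under the replicate block Ccnd3 had an adjusted p of 0.0628 in CD44high and Cdkn1b 0.0622 in CD44low Tregs after injury, and no other call of a member changed. Summing libraries 1 with 1_2 and 5 with 5_2 left the count for injury in CD44low Tregs at 2, with Cdk6 gained (adjusted p = 0.0353) and Cdkn1b lost (0.0615).

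Log2 values that changed sign were, for Ccnd2 after injury in CD44low Tregs, 0.0017 with DESeq2, 0.0017 with RLE factors, 0.0149 without the filter and 0.20 without the length trend. Without the length trend they were also 0.0017 for Ccnd2 and -0.0328 for Cdk4 between subsets in injured mice, and 0.10 for Cdk6 in the difference, and for Rb1 in the difference -0.0911 without the second-number libraries. Leaving out 1 library gave -0.0758 to 0.0547 for Ccnd2, -0.35 to 0.0117 for Cdkn1a after injury in CD44low Tregs, and -0.12 to 0.0465 for Cdkn2d after injury in CD44high Tregs. It gave -0.0039 to 0.11 for Cdk4 and -0.0274 to 0.22 for Cdkn1b between subsets in injured mice, -0.0391 to 0.12 for Cdkn1b in uninjured mice, and -0.27 to 0.0908 for Cdk6, -0.19 to 0.0522 for Cdkn1b and -0.0646 to 0.22 for Rb1 in the difference. The cause was not tested.

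Shares in uninjured CD44high, uninjured CD44low, injured CD44high and injured CD44low Tregs depended on the length by construction. Without length Cdk6 made up 29.6%, 19.6%, 20.9% and 11.0% of its pair, Cdkn2c 53.7%, 6.64%, 44.0% and 5.92%, Cdkn1a 22.6% and 17.5% in the CD44high groups, and Ccnd2 77.8% in uninjured CD44low Tregs. With transcript lengths Ccnd2 made up 44.4%, 53.9%, 46.3% and 49.8%, Cdkn1a 38.9%, 7.60%, 31.6% and 9.20%, and Cdk6 6.99% and 4.20% in uninjured mice. Cdkn1a rests on 5 to 19 counts per CD44low library, the lowest counts of the members.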
